A study of Mus musculus with 4 samples.

Results

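The nuclear-encoded respiratory chain genes were taken as every gene of the deposited count table whose symbol began with Ndufa, Ndufb, Ndufc, Ndufs, Ndufv, Uqcr, Atp5 or Cox4 to Cox8, together with Sdha, Sdhb, Sdhc, Sdhd, Cycs and Cyc1. The rule found 96 members among 32288 features and used no measured value. They comprised 36 subunits of complex I, 8 complex I assembly factors (Ndufaf), 4 subunits of complex II, 9 of complex III with Cyc1, the electron carrier cytochrome c (Cycs), 20 of complex IV with Ndufa4 and Ndufa4l2, 17 of complex V, and the symbol Ndufb1-ps. The 87 structural subunits are these without the assembly factors and Ndufb1-ps. The 13 protein genes of mitochondrial DNA (mt- genes) served for comparison.

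Cells came from 4 mice of genotype Ptf1aCre-ERTM;ROSAYFP/+, backcrossed into CD-1 and 10 weeks old when injury began. In these mice Cre driven from Ptf1a, an acinar gene, is activated by tamoxifen, so that pancreatic acinar cells and their descendants carry EYFP. All 4 mice then received caerulein, a secretagogue that causes pancreatitis, 2 of them for 2 weeks and the other 2 for 4 weeks, and no uninjured mouse was analysed here. EYFP+ cells of each pancreas were sorted and sequenced as 1 droplet library per mouse. Each library was thus 1 mouse, and the 4 libraries held 13362 cells with 60224505 to 90547790 transcript counts (unique molecular identifiers, UMIs) in all. Every cell held at least 1 EYFP UMI. 23 of 13338 barcodes occurred in more than 1 mouse.

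The respiratory chain sits in the inner mitochondrial membrane. Complexes I and II pass electrons from NADH and succinate to complex III, cytochrome c carries them to complex IV, which reduces oxygen, and complex V makes ATP from the proton gradient. Most subunits are encoded in the nucleus and imported. Complexes I, III, IV and V also hold subunits made inside the organelle from mt- genes. In the pancreas, acinar cells spend much of this ATP on the synthesis and secretion of digestive enzymes. After injury some of them give rise to mucin-rich ductal cells, to tuft cells, which are chemosensory, and to hormone-producing enteroendocrine cells.

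Promoters are shown first, because the members are transcribed from scattered nuclear loci and their shared control is known to run through a small set of factors. The 150 bases before the RefSeq start (GRCm38.p6) were read for 5 genes. Cycs, Cox6a1, Uqcrh, Cox8a and Cox7a1 were picked after their values were seen, since their levels carry the differences described further on. Each is printed in the direction of transcription, and capitals mark a match to a searched motif.
Cycs: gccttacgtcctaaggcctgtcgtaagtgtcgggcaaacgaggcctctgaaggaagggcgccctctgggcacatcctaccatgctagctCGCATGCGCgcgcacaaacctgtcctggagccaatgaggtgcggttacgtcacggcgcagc
Cox6a1: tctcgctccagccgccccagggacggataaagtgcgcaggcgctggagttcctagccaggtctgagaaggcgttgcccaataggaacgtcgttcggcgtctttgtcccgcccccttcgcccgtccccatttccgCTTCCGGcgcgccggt
Uqcrh: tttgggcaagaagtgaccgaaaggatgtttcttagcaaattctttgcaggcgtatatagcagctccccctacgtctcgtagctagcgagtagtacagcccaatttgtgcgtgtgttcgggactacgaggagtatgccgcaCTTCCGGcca
Cox8a: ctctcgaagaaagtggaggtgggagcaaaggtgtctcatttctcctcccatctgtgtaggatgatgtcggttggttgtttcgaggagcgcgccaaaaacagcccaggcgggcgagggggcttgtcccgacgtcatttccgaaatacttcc
Cox7a1: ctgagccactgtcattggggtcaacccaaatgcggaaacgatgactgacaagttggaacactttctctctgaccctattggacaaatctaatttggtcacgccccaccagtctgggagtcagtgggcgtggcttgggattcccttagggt
The Cycs stretch lay at chr6:50566570-50566719 on the minus strand and held the core bound by NRF1, a regulator of respiratory genes, 61 bases before the start. Cox6a1 (chr5:115348959-115349108, minus strand) and Uqcrh (chr4:116075071-116075220, minus strand) held the core of ETS factors such as GABP at 16 and 10 bases before the start. All 3 matches were on the opposite strand, so the letters read as the reverse complement. Neither Cox8a (chr19:7217617-7217766, minus strand) nor Cox7a1 (chr7:30184021-30184170, plus strand) held any of the motifs searched. Over the 78 members with a promoter in the RefSeq table, 7.69% held the NRF1 core GCGCATGCG on either strand, against 1.37% of all 27025 genes in it. The ETS core CCGGAAG was found in 15.4% of members and 6.33% of genes. The YY1 letters AANATGGCG were in 2.56% of members and 0.884% of genes, and TATAAA in 5.13% of members and 8.89% of genes. None of these motifs contains another. Member stretches had a median GC content of 60%, against 54% over all, and the part of base composition in the motif shares was not tested. The 6 members with the NRF1 core were Cycs, Atp5g2, Atp5k, Ndufa8, Ndufa11 and Ndufaf4. A match describes letters in the window and does not show that a factor was bound.

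Cell types below carry the submitters' labels. The acinar, tuft and endocrine labels were set against marker lists. Values are in CPM, the UMIs of a gene scaled to a total of 1000000 per sample. Marker sums for the MucinDuctal, Ductal-like and Acinar.Prolif labels are not given. The sum of 8 acinar markers averaged 293280 CPM in Acinar cells and 12371 CPM in MucinDuctal cells. The sum of 8 tuft markers averaged 8270 CPM in Tuft cells and at most 422 CPM in any of the other 7 types. The sum of 8 endocrine markers averaged 8415 CPM in enteroendocrine (EEC) cells and at most 287 CPM elsewhere. Macrophage markers (6 genes, all detected) averaged 16.8 CPM in Acinar and 151 CPM in Acinar/MucinDuctal cells, the intermediate type, and their part in the results was not tested. Types in a mouse were used where they held at least 20 cells, which left 3 mice for Tuft/EEC.Progenitor cells and 4 for the other 7 types. Acinar/MucinDuctal cells had a median of 19556 UMIs per cell in 2-week mouse 2 and between 2659 and 3555 in the other 3 mice.

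Among the cell types, Tuft cells devoted the largest share of their transcripts to the respiratory chain. The summed level of the 96 members in Tuft cells was 46962 and 46471 CPM in 2-week mice 1 and 2, and 45838 and 48292 CPM in 4-week mice 1 and 2; all values per mouse below follow this order. MucinDuctal cells held 26778, 27020, 27346 and 26854 CPM, and EEC cells held 29947, 29776, 29222 and 29665 CPM. Acinar cells had the lowest sums, at 15328, 14072, 14181 and 12153 CPM, and overlapped no other type in any mouse. Proliferating acinar cells (Acinar.Prolif) lay between 19938 and 21374 CPM.

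Much of an acinar cell's RNA encodes digestive enzymes, so a share of all transcripts falls when enzyme transcripts are abundant. UMIs of 31 enzyme genes made up 48.8 to 57.8% of the total in Acinar cells, 34.8 to 45.5% in Acinar.Prolif, 22.5 to 28.1% in Acinar/MucinDuctal, 1.41 to 3.08% in MucinDuctal and 0.750 to 2.03% in Tuft cells. With enzyme UMIs left out of the total, the members summed to 31477, 27486, 33346 and 28814 CPM in Acinar cells. On the same scale MucinDuctal cells held 27629, 27407, 28211 and 27526 CPM, Acinar.Prolif cells 36220, 32766, 37693 and 35011 CPM, and Tuft cells 47934, 46822, 46527 and 48859 CPM. The MucinDuctal sum, above the Acinar sum with all UMIs, was thus below it within each mouse on this scale, barely so in 2-week mouse 2. Across mice the values of the 2 types overlapped. Tuft cells were above the other types on both scales and Acinar.Prolif cells ranked second by their mean once enzymes were left out.

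**Figure D1:**
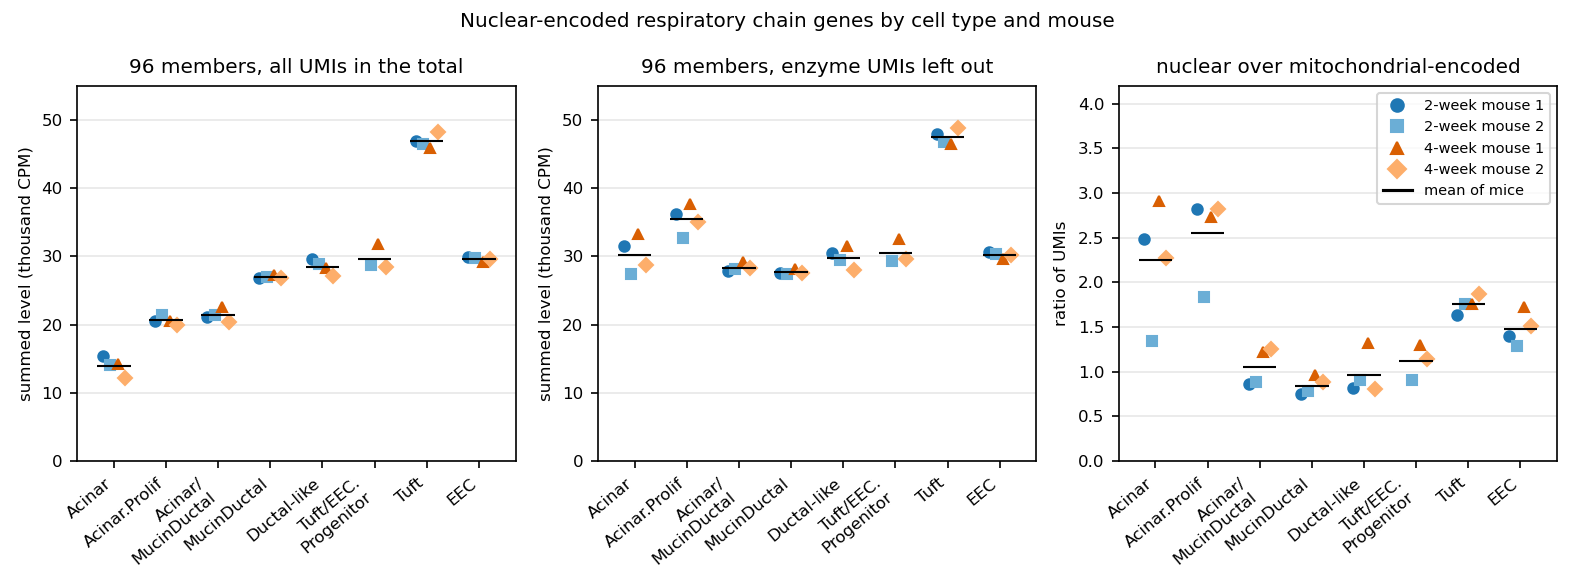
Summed level of the 96 members per cell type, with all UMIs in the total (left) and with enzyme UMIs left out (middle), in units of 1000 CPM, and the ratio of member UMIs to mt- gene UMIs (right). Each point is 1 mouse; Tuft cells are highest in both of the first panels, Acinar cells are lowest only in the first, and the ratio is highest on average in Acinar.Prolif and Acinar cells, with 2-week mouse 2 low in both.

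Cell types were compared by the log2 ratio within each mouse, given as mean ± SD over mice. No p-value is given between types, because the types were defined on these same counts. With all UMIs in the total, the MucinDuctal over Acinar ratio of the summed members was 0.96 ± 0.14 (n = 4), and 82 of the 87 members with at least 10 CPM in either type were higher in every mouse and 1 was lower. That direction held for 93.7% of all genes of such a level, and 2.8% were lower. With enzymes left out the ratio was -0.12 ± 0.11, and 26 members were higher and 32 lower in every mouse, against 62.5% of all genes higher and 15.5% lower. Where 12 further acinar secretory genes were also left out, the ratio was -0.45. The direction of this comparison therefore depends on the total, and unless stated otherwise levels below leave the enzymes out.

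Single members differed between MucinDuctal and Acinar cells in both directions. The largest ratio upward was that of Cox7a2l, which helps complexes III and IV associate. Its level was 143, 189, 112 and 176 CPM in Acinar and 314, 441, 269 and 398 CPM in MucinDuctal cells, a ratio of 1.20 ± 0.06 (n = 4), and the types did not overlap. Sdha, the flavoprotein of succinate dehydrogenase, had 51.1 to 68.1 CPM in Acinar and 113 to 132 CPM in MucinDuctal cells (1.09 ± 0.18). Uqcrh, the hinge protein of complex III, had 447 to 556 CPM in Acinar and 876 to 1037 CPM in MucinDuctal cells (0.90 ± 0.19). Sdhd and Ndufaf7 were higher as well, by 0.66 ± 0.20 and 0.91 ± 0.11. With the 12 further secretory genes also left out, Uqcrh, Sdhd and Ndufaf7 were at 0.57, 0.33 and 0.58, in the same direction.

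In the other direction, Uqcrq, a small complex III subunit, had 1149, 877, 1347 and 1083 CPM in Acinar and 588, 441, 591 and 473 CPM in MucinDuctal cells (-1.09 ± 0.12). Uqcrq and Uqcrh belong to the same complex, and the gap between their ratios is the same under any total, since the total cancels between 2 genes of the same cells. Cycs had 238, 178, 205 and 207 CPM in Acinar and 118, 112, 94.5 and 103 CPM in MucinDuctal cells (-0.95 ± 0.20). Cox6a1, the ubiquitous form of complex IV subunit 6a, was lower by the same measure (-0.88 ± 0.11). With all UMIs in the total, the ratios of Cycs and Cox6a1 were 0.13 and 0.21, so their direction flipped, and that of Uqcrq was -0.0013 ± 0.03, so its difference was absent on that scale.

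The sum in Acinar/MucinDuctal cells lay between those of the types they are named for in 3 of 4 mice, and above both in 2-week mouse 2, where these cells had a far higher median of UMIs. Their summed ratio over Acinar was -0.09 ± 0.11, with 21 members higher and 29 lower of 87, against 63.8% and 10.7% of all genes. Cox7a2l (268 CPM on average), Sdha (104 CPM) and Uqcrh (780 CPM) were above their Acinar means of 155, 57.4 and 513 CPM, and Uqcrq (696 CPM), Atp5g1 (746 CPM) and Cox6a1 (276 CPM) were below theirs of 1114, 1120 and 408 CPM. With all UMIs in the total the ratios of Uqcrq, Atp5g1 and Cox6a1 were 0.04, 0.13 and 0.15, so their direction flipped, while Cox7a2l, Sdha and Uqcrh stayed higher in every mouse. Acinar.Prolif cells differed from Acinar cells mainly upward, by 0.23 ± 0.05, with 68 of 88 members higher and 4 lower in every mouse, against 43.4% and 14.2% of all genes. All 17 complex V members were higher. The largest ratio was that of Cycs, with 367, 310, 359 and 360 CPM (0.76 ± 0.09), followed by Cox7a1 and Ndufa5 (0.59 ± 0.05 for the latter). Sdhb and Ndufa13 were lower, by -0.31 ± 0.21 and -0.19 ± 0.08, and with all UMIs in the total they were at 0.03 ± 0.18 and 0.15 ± 0.11.

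Ductal-like cells numbered 22 to 56 per mouse. In 4-week mouse 1 their enzyme share was 10.1% and their median 8889 UMIs per cell. The other mice had 2.10 to 2.85% and 21039 to 38506 UMIs. Their summed ratio over Acinar was -0.02 ± 0.08, with 40 of 89 members higher and 25 lower, against 70.2% and 8.7% of all genes. EEC cells were at 0.00 ± 0.14, with 36 of 87 members higher and 17 lower, against 73.7% and 14.7%. In both types Cox7a2l was higher than in Acinar cells (1.05 ± 0.30 and 1.09 ± 0.14) and Uqcrq was lower (-1.13 ± 0.25 and -1.52 ± 0.31). With all UMIs in the total Uqcrq was at -0.07 ± 0.19 in Ductal-like and -0.43 ± 0.21 in EEC cells. Ndufs4, an accessory complex I subunit, was higher in EEC cells, at 194 to 247 CPM against 96.7 to 129 CPM in Acinar cells.

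The mt- genes did not follow the nuclear members. They summed to 12656, 20384, 11443 and 12700 CPM in Acinar cells and to 36602, 35090, 29342 and 31305 CPM in MucinDuctal cells, a ratio of 1.24 ± 0.32, and all 13 were higher in every mouse. The number of member UMIs per mt- gene UMI needs no total. It was 2.49, 1.35, 2.91 and 2.27 in Acinar and 0.755, 0.781, 0.961 and 0.879 in MucinDuctal cells. The 2 types did not overlap, and the log2 ratio was -1.37 ± 0.41 (n = 4). Among the mt- genes, mt-Co1, which encodes the largest complex IV subunit, averaged 3029 CPM in Acinar and 6859 CPM in MucinDuctal cells.

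Most other types lay between these values. The nuclear over mitochondrial ratio was 2.82, 1.83, 2.73 and 2.82 in Acinar.Prolif cells, 1.63, 1.75, 1.76 and 1.87 in Tuft cells and 1.40, 1.29, 1.73 and 1.51 in EEC cells. It was 0.863, 0.889, 1.22 and 1.25 in Acinar/MucinDuctal cells. The deposited table holds no cell with more than 5.999% of its UMIs, enzymes included, from mt- genes, so cells above that share are missing. Cells at 5% or more made up 6.66 to 16.2% of MucinDuctal and 0.897 to 2.06% of Acinar cells per mouse. The limit may thus have cut the types unequally, and how many cells of each it removed is not known. In 2-week mouse 2 the Acinar ratio was the lowest of the 4. The sum of 13 immediate-early and heat-shock genes, which respond to tissue dissociation among other stimuli, was also taken. It was 1749 CPM in the Acinar cells of that mouse, against 377 to 807 CPM in the other mice. Between types the same sum averaged 848 CPM in Acinar, 3237 CPM in MucinDuctal, 3116 CPM in Tuft and 6591 CPM in EEC cells. All these sums of immediate-early and heat-shock genes had all UMIs in the total, of which enzymes made up 48.8 to 57.8% in Acinar cells. The part of the immediate-early and heat-shock genes in the mt- levels was not tested.

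Tuft cells exceeded MucinDuctal cells by 0.78 ± 0.04 in the summed members (n = 4), a 1.72-fold difference that barely varied between mice. Of 87 members, 79 were higher in every mouse and 0 were lower, against 50.3% and 26% of all genes. Enzyme UMIs were few in both types, and with all UMIs in the total the ratio was 0.80 ± 0.04. Against EEC cells the ratio was 0.65 ± 0.03, with 72 of 87 members higher and 2 lower, against 29.3% and 45.4% of all genes. Against Acinar cells it was 0.65 ± 0.14, with 69 of 88 higher and 4 lower, against 67.4% and 16.9% of all genes. Most genes in general were thus also higher there with enzymes left out. The comparisons with MucinDuctal and EEC cells were chosen after the data were seen, because neither type is rich in enzyme UMIs.

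The difference between Tuft and MucinDuctal cells was unequal across the chain. Complex IV members summed to a ratio of 1.01 ± 0.06, and the 12 that reached 10 CPM were all higher. Complex I was at 0.76 ± 0.05 with 33 of 36 higher, complex V at 0.64 ± 0.03 with 15 of 17, complex III at 0.56 ± 0.05 with 8 of 9, and complex II at 0.39 ± 0.11 with 3 of 4. Cycs alone was at 1.24 ± 0.10. The assembly factors were at 0.82 ± 0.06, with 6 of 7 higher.

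Other mitochondrial lists, and a list of glycolysis genes, ranged more widely in the same comparison. The 78 mitochondrial ribosomal protein genes were at 0.53 ± 0.05 (51 of 76 higher, 7 lower) and 17 genes of the TCA cycle at 0.28 ± 0.03 (9 higher, 4 lower). Mitochondrial carriers and channels were at 0.86 ± 0.09 (9 of 11 higher), 8 genes of mitochondrial redox defence at 0.78 ± 0.10 (all 8 higher), and 16 glycolysis genes at 0.63 ± 0.10 (8 of 15 higher, 3 lower). The mt- genes were at -0.28 ± 0.10, with 0 of 13 higher and 9 lower in every mouse. The median of the ratios of single genes was 0.25 over all genes, a measure unlike the ratios of summed lists.

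**Figure D2:**
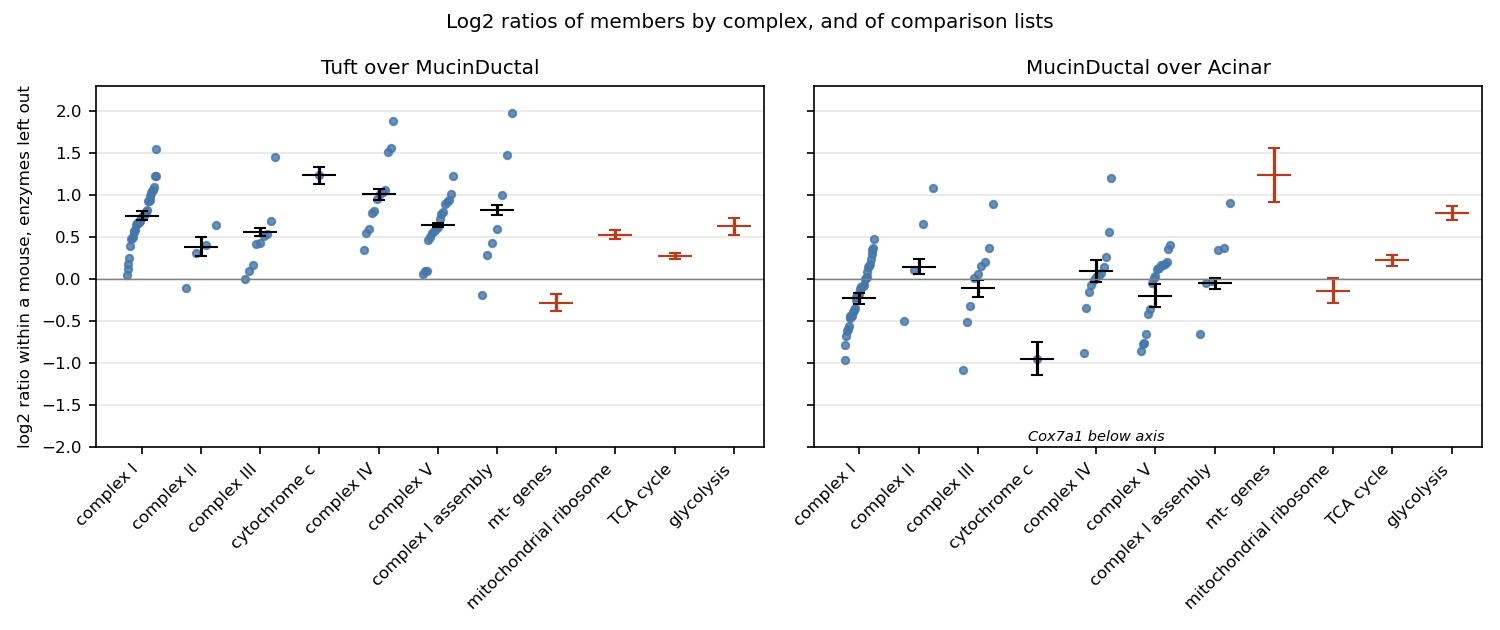
Log2 ratios within a mouse, enzymes left out, for Tuft over MucinDuctal (left) and MucinDuctal over Acinar cells (right). Blue points are members with at least 10 CPM, black bars the summed level of each complex and red bars the comparison lists, with mean and SD over 4 mice; on the left the complexes lie above 0 and mt- genes below, and on the right the complexes lie near 0 with mt- genes at 1.24.

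Because the share of each complex among subunit UMIs needs no total, it was compared as well. Complex IV made up 31.5 to 32.5% of subunit UMIs in the Tuft cells of the 4 mice, above every other type. It made up 23.5, 24.2, 23.3 and 22.5% in Acinar cells, between 26.6 and 28.4% in MucinDuctal cells and between 25.6 and 27.1% in EEC cells. Complex V made up 26.6 ± 0.73% in Tuft and 30.8 ± 0.78% in Acinar cells, and complex I 28.3 ± 0.86% and 30.9 ± 1.25%. Cycs ranged from 0.39 ± 0.04% in MucinDuctal to 1.00 ± 0.04% in Acinar.Prolif cells.

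Several small complex IV subunits were among the members of largest ratio. Cox6c, a membrane-spanning accessory subunit (chr15:35925886-35938246), had 2352, 2358, 2146 and 2315 CPM in Tuft cells. It had 599, 639, 661 and 592 CPM in MucinDuctal, 606, 555, 672 and 535 CPM in Acinar and 820, 811, 835 and 771 CPM in EEC cells. No other type overlapped Tuft cells, and the ratio over MucinDuctal was 1.88 ± 0.13. Cox8a, whose promoter is printed above, had 2424, 2311, 2423 and 2865 CPM in Tuft, 1173 to 1272 CPM in MucinDuctal and 778 to 906 CPM in Acinar cells. Cox7a2, a small structural subunit, had 1304, 1231, 1316 and 1392 CPM in Tuft and 435 to 476 CPM in MucinDuctal cells (1.51 ± 0.11). Cox6a1 had 669, 664, 595 and 687 CPM in Tuft and 212 to 227 CPM in MucinDuctal cells (1.56 ± 0.13). Cox4i1, a regulatory subunit of complex IV, differed less, with means of 1315 CPM in Tuft and 1040 CPM in MucinDuctal cells.

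Outside complex IV, Uqcr10, a small complex III subunit, had 1382, 1135, 1344 and 1375 CPM in Tuft, 402, 416, 449 and 383 CPM in EEC and 419 to 540 CPM in MucinDuctal cells, and its ratio over EEC was 1.66 ± 0.18. Ndufs5 had 478 to 581 CPM in Tuft and 156 to 188 CPM in MucinDuctal cells (1.55 ± 0.12). Ndufaf3, which acts early in complex I assembly, had 124, 107, 107 and 121 CPM in Tuft and 28.5, 25.2, 29.7 and 33.6 CPM in MucinDuctal cells (1.98 ± 0.15). Against EEC cells its ratio was 0.69 ± 0.04. Ndufaf4, its binding partner, went the other way in that comparison, with a mean of 29.2 CPM in Tuft and 50.0 CPM in EEC cells (-0.78 ± 0.13), and against MucinDuctal cells it was at -0.19 ± 0.21. Uqcrfs1, the Rieske iron-sulphur protein of complex III, was also lower in Tuft than in EEC cells (-0.39 ± 0.12). Partners in 1 complex thus differed from each other in the size and the sign of the ratio.

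By the mean over mice, 59 of the 87 members that averaged 10 CPM or more over the types were highest in Tuft cells, 20 in Acinar.Prolif, 4 in Ductal-like, 2 in Tuft/EEC.Progenitor and 1 each in Acinar and EEC cells. The share of all genes that were highest in each type was not counted, so these numbers describe the members alone. They hold with enzymes left out, and the ranks with all UMIs in the total were not counted. Enzymes made up 34.8 to 45.5% of UMIs in Acinar.Prolif cells, so peaks there depend on the total. With all UMIs, Acinar.Prolif cells held 19938 to 21374 CPM of members, below the 26778 to 27346 CPM of MucinDuctal cells. With enzymes left out, members that peaked in Acinar.Prolif cells included Atp5e, Atp5g1, Uqcrq and Uqcr11. The members of highest level over types were Cox8a at 1237 CPM, Atp5e at 1038 CPM and Cox4i1 at 1038 CPM. In this assay 1 end of each transcript is counted, so levels of different genes were not divided by length. Within complex I, Ndufb9 (629 CPM) and Ndufa13 (498 CPM) were highest. 5 members share exon bases with a gene on the same strand in the annotation, among them Ndufb9 and Atp5o, and how their reads were assigned is uncertain.

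**Figure D3:**
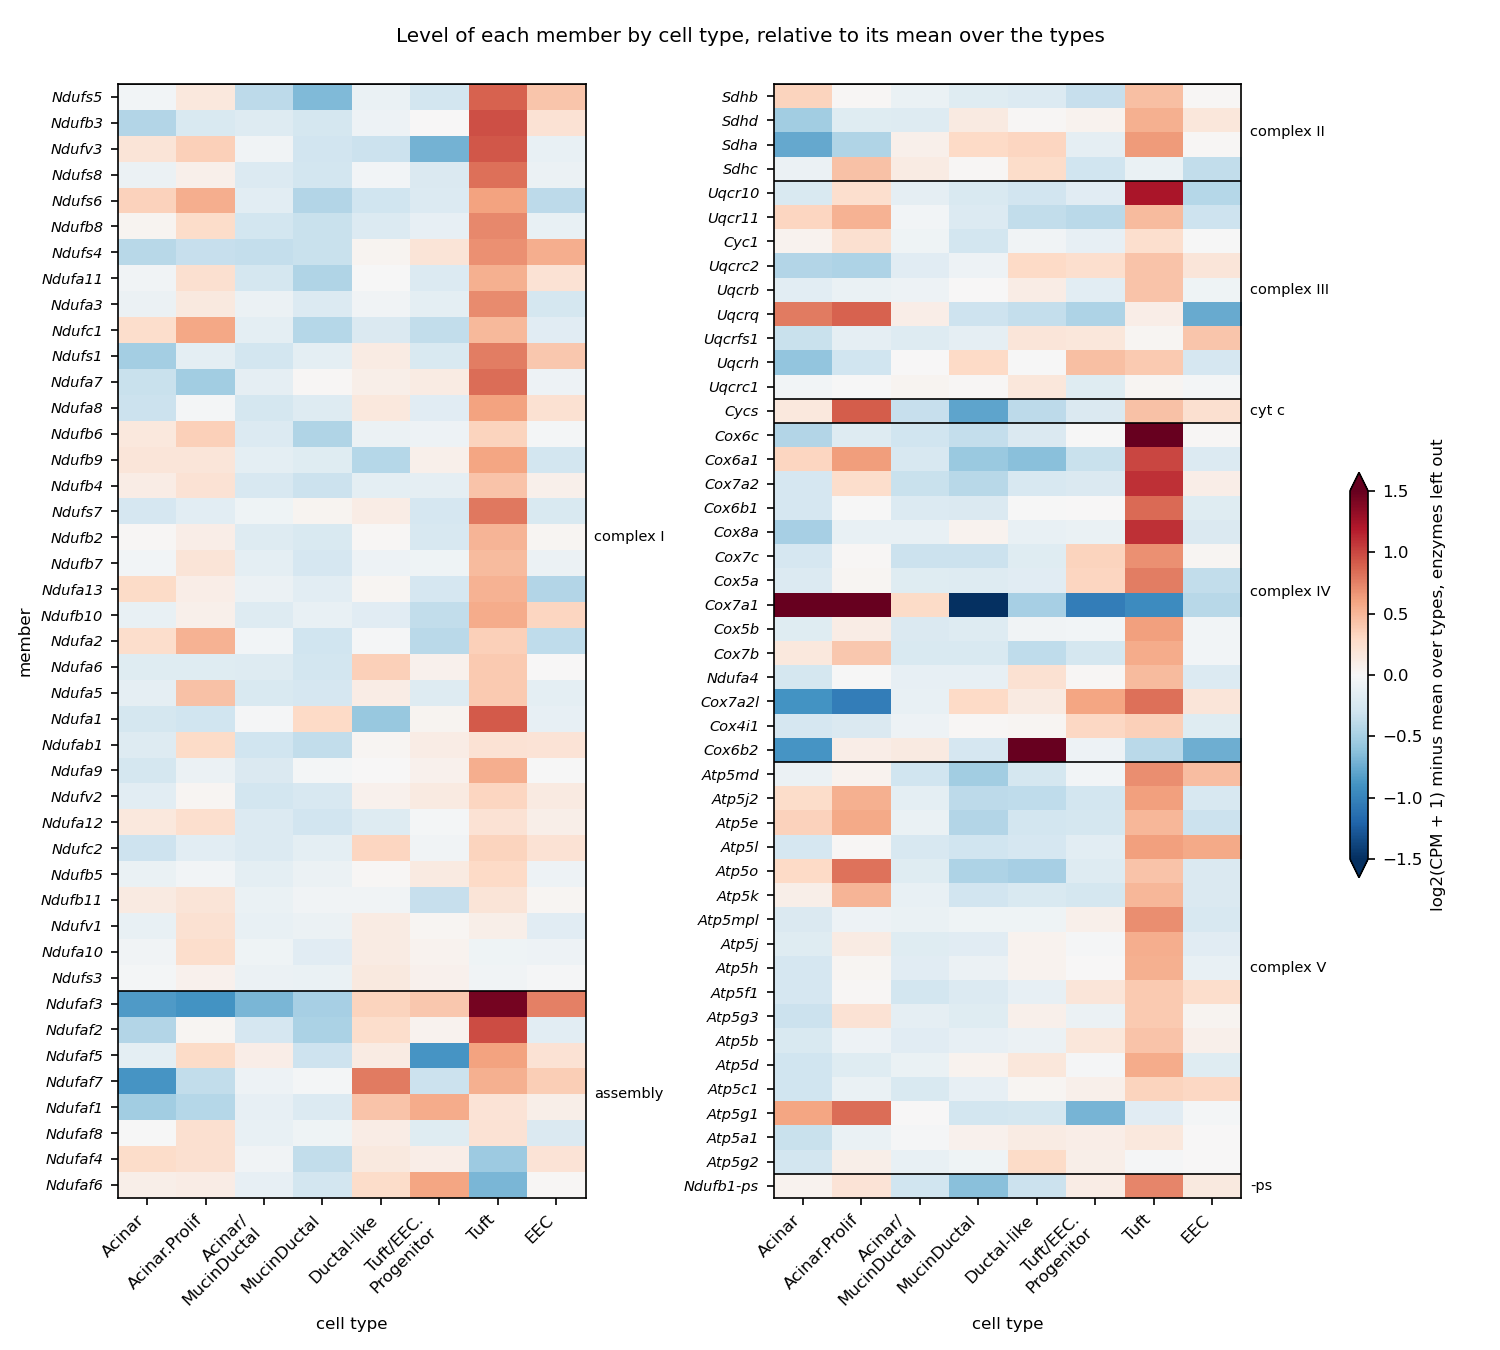
Level of each member per cell type as log2(CPM + 1), enzymes left out, minus its mean over the types, averaged over mice; 1 member and those below 10 CPM in every type are not drawn, and within each complex members are ordered by Tuft minus MucinDuctal. Red is above and blue below the member's mean, and the Tuft column is red for most members while single members such as Uqcrq and Cox7a1 are red in the acinar columns.

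Several subunits have tissue-specific isoforms, usually a ubiquitous form and one known from heart and muscle, lung or testis. Most restricted forms were close to absent. Over all 13362 cells, Cox8c, a testis form, had 0 UMIs, Cox8b 1, Cox4i2, the lung form, 15, Ndufa4l2 49, Cox6a2, the heart form, 90 and Cox7b2 124. Of the Cox6a2 UMIs, 68 were in Acinar cells, where Cox6a1 averaged 408 CPM.

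Cox7a1, the heart and muscle form of subunit 7a (chr7:30184144-30186078), was among the restricted forms detected at a higher level, with Cox6b2. It had 20.8, 36.5, 37.6 and 15.6 CPM in Acinar and 25.1, 57.5, 63.8 and 24.8 CPM in Acinar.Prolif cells, and 2.15, 1.37, 0.632 and 0.791 CPM in MucinDuctal cells. The ratio of MucinDuctal over Acinar was -4.55 ± 1.09 (n = 4), the largest in size among the members of at least 10 CPM, on 97 UMIs in all MucinDuctal cells. Acinar/MucinDuctal cells lay between at 9.07, 12.5, 6.22 and 5.72 CPM. RNA from other cells in a droplet can give UMIs at such low levels, and its part was not tested. Cox7a1 made up 3.94 ± 1.53% of Cox7a UMIs in Acinar cells and 0.15 ± 0.09% in MucinDuctal cells, so Cox7a2 and Cox7a2l supplied nearly all.

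Cox6b2, the testis form of subunit 6b, was highest in Ductal-like cells, with 25.04, 12.4, 14.6 and 25.1 CPM. No value in another of the 8 types exceeded 8.22 CPM, and Acinar cells had 0.598 to 2.36 CPM. The Ductal-like values rest on 79 UMIs, and the ratio over Acinar was 3.78 ± 1.24. Its common counterpart Cox6b1 had 646 to 729 CPM in those cells.

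The c-ring of complex V is encoded by Atp5g1, Atp5g2 and Atp5g3, whose mature proteins are the same. Atp5g1 gave 55.5 ± 2.92% of their UMIs in Acinar and 52.5 ± 1.43% in Acinar.Prolif cells, 42.6 ± 2.07% in Acinar/MucinDuctal, 37.7 ± 3.79% in MucinDuctal, 35.3 ± 0.68% in Tuft and 32.7 ± 1.78% in Ductal-like cells. In MucinDuctal cells Atp5g2 gave 42.1 ± 4.00%, above Atp5g1 in 2-week mouse 2 and 4-week mouse 2 and below it in the other 2 mice. Shares in Acinar and MucinDuctal cells were further apart than the spread between mice.

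**Figure D4:**
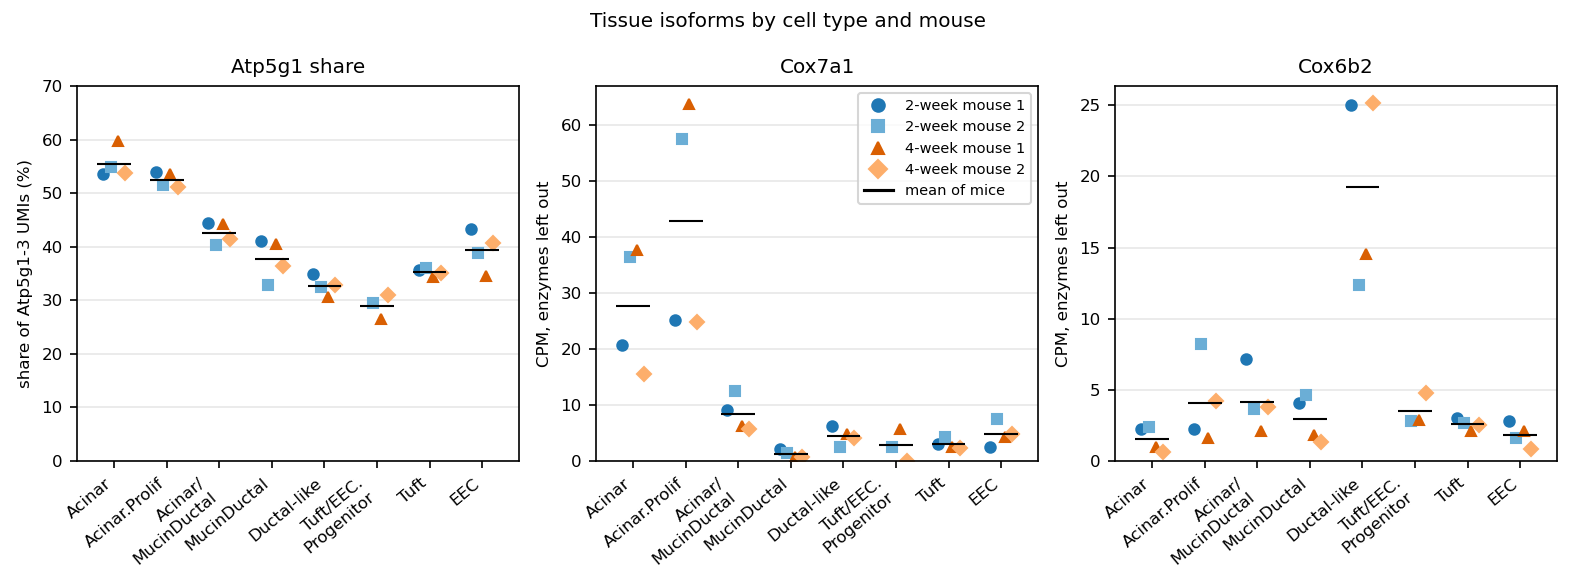
Share of Atp5g1 among UMIs of the 3 c-ring genes (left, percent), and level of Cox7a1 (middle) and Cox6b2 (right) in CPM with enzymes left out, per cell type. Each point is 1 mouse; Atp5g1 and Cox7a1 are highest in Acinar and Acinar.Prolif cells and Cox6b2 in Ductal-like cells.

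Tuft and enteroendocrine cells also carry subtype labels, given for 2586 cells. Tuft-1 cells reached 20 cells in 2 mice only and held 37983 CPM of members in 2-week mouse 2 and 35001 CPM in 4-week mouse 2. Tuft-2 cells held 50154, 48638, 49015 and 49215 CPM and Tuft-3 cells 48549, 53337, 48130 and 51244 CPM. In both of these mice Tuft-2 over Tuft-1 was 0.42 ± 0.10, with 73 of 88 members higher and 5 lower in both mice, against 37.7% and 36.3% of all genes. Tuft-3 over Tuft-2 was 0.03 ± 0.08 (n = 4), with 22 of 87 higher and 29 lower, against 21.2% and 18.6% of all genes. The mt- genes did not share the first step: Tuft-2 over Tuft-1 was -0.16 ± 0.12 for their sum.

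Members differed along these subtypes. Ndufv3, an accessory subunit of the NADH-binding module, had 244 and 219 CPM in Tuft-1 and 476 and 469 CPM in Tuft-2 cells of the same mice (1.03 ± 0.09). Cox8a had 1386 CPM in both Tuft-1 samples and 2383 and 2684 CPM in Tuft-2 cells of those mice. Ndufs7, a core complex I subunit, was also higher in Tuft-2 cells (0.91 ± 0.12). Between Tuft-2 and Tuft-3 cells, Ndufa1 went from 446, 351, 549 and 427 CPM to 770, 663, 936 and 716 CPM (0.81 ± 0.08) and Uqcr10 from a mean of 1140 to 1654 CPM (0.54 ± 0.19). Cycs was lower in Tuft-3 cells (-0.39 ± 0.22).

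Endocrine subtypes were compared with EEC-Progenitor (Neurog3+) cells, which held 31926, 31399, 34539 and 32403 CPM. Delta (Sst+) cells were at -0.26 ± 0.02, with 6 of 87 members higher and 52 lower in every mouse, against 25% and 24.2% of all genes. Ppy+ cells were at -0.32 ± 0.13, with 3 higher and 54 lower, against 16% and 41.7%. Epsilon (Ghrl+) cells were at -0.09 ± 0.14, with 9 higher and 25 lower, against 17.3% and 28.5%, and ECL (Tac1+) cells at -0.03 ± 0.02, with 23 higher and 27 lower, against 32% and 21.4%. The numbers of cells per mouse and subtype were small, from 20 to 166.

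Cox5a, an accessory subunit on the matrix side of complex IV, was lower than in progenitors in all 4 other endocrine subtypes. It had 514, 519, 492 and 545 CPM in EEC-Progenitor cells, 230, 281, 261 and 261 CPM in Delta cells and 186, 300, 188 and 136 CPM in Ppy+ cells, and the ratios were -1.0048 ± 0.13 and -1.41 ± 0.50. In Epsilon and ECL cells they were -0.56 ± 0.15 and -0.81 ± 0.22. Uqcr10 and Cox7c were also lower, from means of 614 and 1283 CPM in progenitors to 309 to 375 CPM and 688 to 898 CPM in the 4 subtypes. Other members were higher in all 4 subtypes: Ndufv3 went from a mean of 167 CPM to between 253 and 309 CPM, and Atp5g1 from 497 CPM to between 714 and 1011 CPM.

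**Figure D5:**
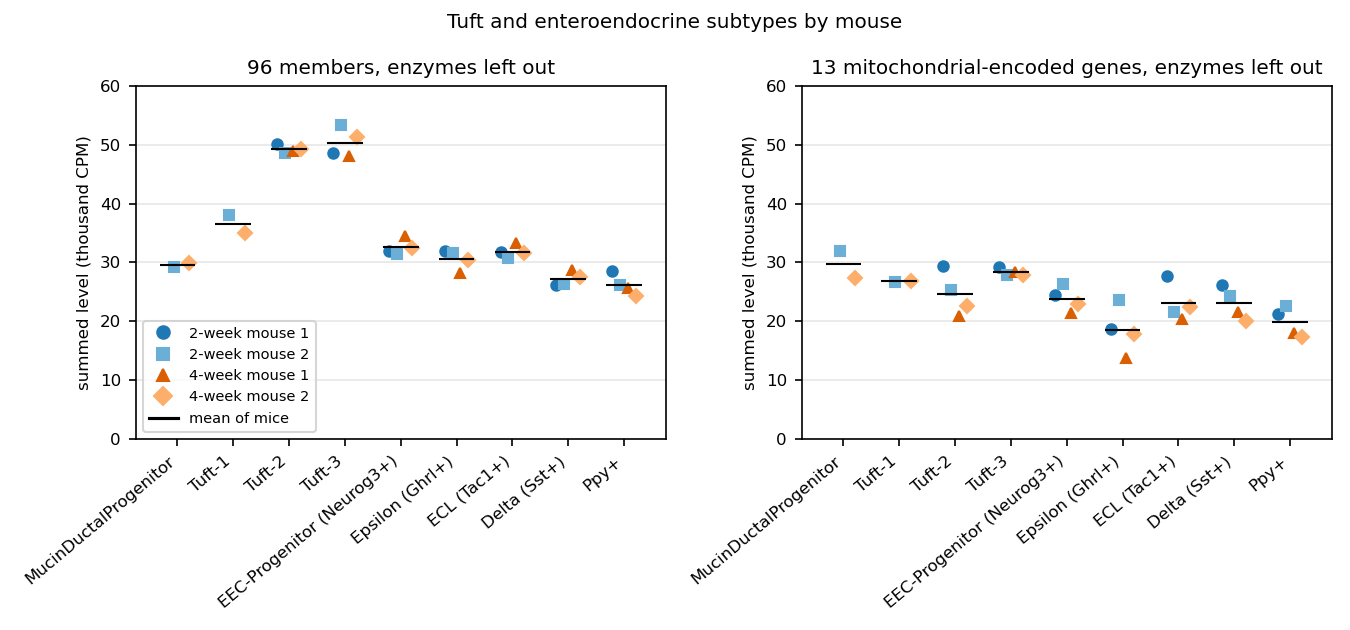
Summed level of the 96 members (left) and of the 13 mt- genes (right) per tuft and enteroendocrine subtype, in units of 1000 CPM with enzymes left out. Each point is 1 mouse with at least 20 cells of the subtype; members are lower in Tuft-1 than in Tuft-2 and Tuft-3 cells, and Delta and Ppy+ cells are below EEC-Progenitor cells.

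The 2 durations of caerulein treatment were compared within each of the 7 types present in all 4 mice, by summing counts per mouse and testing all genes with edgeR's quasi-likelihood test. No member was called at an adjusted p of 0.05 in any type, among 87 to 91 members tested per type. The same held for nearly all genes: 0% were called in Acinar, Acinar/MucinDuctal, MucinDuctal, Ductal-like, Tuft and EEC cells, and 0.00995% (1 of 10046) in Acinar.Prolif cells. At an unadjusted p under 0.05, edgeR gave 1 member in Acinar cells (1.10% of those tested, against 2.79% of all genes). It gave 3 in Acinar/MucinDuctal (3.33% against 3.42%), 2 in MucinDuctal (2.22% against 5.39%) and 0 in the other 4 types. Over all genes it gave 246 to 739 per type, or 2.45 to 6.74%. DESeq2 also called 0 members in every type. Leaving out 2-week mouse 1 gave 33 of 91 members in Acinar and 27 of 90 in Acinar.Prolif cells at an unadjusted p under 0.05, beside 1733 of 12736 and 1040 of 10642 genes, so the counts at that level depend on this mouse. With 2 mice per time, these tests weigh a difference against the spread between few mice and their libraries. The fits moderate that spread across genes. A missing call does not show that levels were equal.

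The summed members of Acinar cells with enzymes left out, given above, had the 2-week mice at 31477 and 27486 CPM and the 4-week mice at 33346 and 28814 CPM, which overlap. The log2 difference was 0.076 with enzymes left out and -0.16 with all UMIs in the total, which ranged from -0.27 to -0.051 with 1 mouse left out (exact permutation p = 0.667 for both, two-sided, and the smallest that 2 against 2 mice allow is 0.333). In Tuft cells the 2 times also overlapped. The sums did not overlap in EEC cells on either scale, in Ductal-like and Acinar.Prolif cells with all UMIs, and in Acinar/MucinDuctal cells with enzymes left out, each at the smallest p that the exact permutation test allows (0.333). The 4-week mice were lower in the first 3 of these types, by -0.020 to -0.073 on the log2 scale with all UMIs. They were higher by 0.034 in the last. With enzymes left out the times overlapped in Ductal-like and Acinar.Prolif cells. Acinar.Prolif cells then had 36220 and 32766 CPM at 2 weeks and 37693 and 35011 CPM at 4 weeks. Signs of these small differences changed under other settings given below. The median fitted log2 change of members was 0.26 in Acinar cells, where that of all genes was -0.03, and between -0.02 and 0.13 in the other 6 types. The Acinar median was -0.18 when counts were scaled by total UMIs alone, a scaling that moved the median of all genes to -0.49. It was 0.55 without 2-week mouse 1, 0.10 without 2-week mouse 2, 0.14 without 4-week mouse 1 and 0.38 without 4-week mouse 2, so single mice set its size. Without 2-week mouse 1 the median in Acinar.Prolif cells was 0.31.

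The members of smallest p were low or moderate in level, given here with all UMIs in the total. Cox6b2 had 3.94 and 4.59 CPM at 2 weeks and 1.78 and 1.29 CPM at 4 weeks in MucinDuctal cells (log2 change -1.36, edgeR adjusted p = 0.824). Its 2-week and 4-week values did not overlap there or in Acinar cells (-1.34, edgeR adjusted p = 0.998). On that scale 30.2% of all genes tested in MucinDuctal and 61.8% in Acinar cells also had both 4-week mice below both 2-week mice. Sdhb, the iron-sulphur subunit of complex II, had 124 and 116 CPM at 2 weeks and 150 and 148 CPM at 4 weeks in MucinDuctal cells (0.43, edgeR adjusted p = 0.824). Ndufa7 in Acinar/MucinDuctal cells had 242 and 193 CPM at 2 weeks and 306 and 265 CPM at 4 weeks (0.47, edgeR adjusted p = 0.999). None passed the test.

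The difference of the time effect between MucinDuctal and Acinar cells was tested as an interaction with the mouse as a block. 0 of 91 members and 0% of 14098 genes passed, and at an unadjusted p under 0.05 edgeR gave 0 members and 430 genes. Without 2-week mouse 1 it gave 21 of 92 members and 2858 of 14617 genes at that level. Leaving out 2-week mouse 1 gave 3 calls in this test, among them Ndufaf6 and Ndufa12 (edgeR adjusted p = 0.0295 and 0.0405), and 1 call each in Acinar.Prolif and EEC cells, the latter of Ndufa7. All genes gave 970 calls of 14617 in the interaction test in that setting, 143 of 10642 in Acinar.Prolif and 366 of 12218 in EEC cells, so these calls are no result about the members. That leaves 1 mouse at 2 weeks, whose spread is then assumed to be that of the 4-week mice. Among the members, no other mouse left out gave a call. The nuclear over mitochondrial ratio was higher in both 4-week mice than in both 2-week mice in Acinar/MucinDuctal, MucinDuctal, Tuft and EEC cells, each at the smallest p that the exact permutation test allows (0.333).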

How the data were processed

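Single-cell RNA from sorted EYFP+ cells of 4 mice was measured with 10x 3' chemistry, v3.1 per the labels' protocols. The authors deposited whole-number UMI counts per gene and cell, with label tables naming the type or subtype of each cell barcode. Cell Ranger 4.0.0, Seurat 3.2.3 and mm10 are listed in the submitters' processing notes. No cell had under 1001 UMIs or over 5.999% mt- UMIs, so filters were applied before deposit. No doublet caller was run here; leaving out each type's cells above the 95th percentile of UMIs served instead.

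Counts were summed per mouse and type or subtype (at least 20 cells) and divided by the total UMIs, with or without 31 enzyme genes found of 33 listed, to give CPM. Ratios between types were formed within mice. Times were compared with edgeR 4.0.16 (R 4.3.3, filterByExpr, TMM, robust quasi-likelihood fit, Benjamini-Hochberg adjustment over all genes) and DESeq2 1.42.0. The edgeR fit between times was also run on counts simulated from Acinar and MucinDuctal cells. DESeq2, the interaction test and the other types were not run on simulated counts. Other values used Python 3.11.15. The mouse is the replicate, and depth was 60224505 to 90547790 UMIs per mouse. With 2 mice per time, p-values weigh a difference against the spread between these mice and their libraries, moderated across genes.

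Named members were those of largest ratio with 1 sign in every mouse and at least 10 CPM (up to 5 per direction), of highest level per complex, of the isoform families, and of smallest p between times (up to 3 per direction); others singled out, such as Cox5a, Cox4i1 and Cox6b1, were chosen after their values were seen. Positions come from GENCODE vM21 (95 of 96 members found by name) and promoters from RefSeq GRCm38.p6 (78 members). The values of 1 member are not reported here on their own. The members and lists were chosen with earlier results of these data known. Alternatives covered the total, cell filters, weighting by cell, structural subunits only, the gene filter, the scaling, the tool, the promoter window and each mouse left out. Tuft over MucinDuctal or EEC cells, and named members with all UMIs in the total, were added after seeing the data.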

Additional observations from a re-analysis of the deposited data

Results flagged for a closer look

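Of 28 groups of 4 mice examined for a single mouse far from the other 3, 3 stood out. The threshold is one that chance passes in about 1 in 20 independent groups, and these groups share mice and values. The summed mt- genes of Acinar cells, enzymes left out, were at 20384 CPM in 2-week mouse 2, where the median of the other mice was 12656 CPM. The nuclear over mitochondrial ratio of Acinar.Prolif cells was 1.83 in the same mouse, where the median of the others was 2.82. The summed mt- genes of Tuft cells were at 29358 CPM in 2-week mouse 1, where the median of the others was 26440 CPM. The 96 nuclear members, summed with enzymes left out, gave no such mouse in any of these types.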

How the results depend on the processing

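The total decided the direction against Acinar cells for the types other than Tuft and Acinar.Prolif, which were above Acinar under each total tried. With 12 further secretory genes left out beside the enzymes, summed log2 ratios over Acinar were 0.16 in Acinar.Prolif, -0.33 in Acinar/MucinDuctal, -0.45 in MucinDuctal, -0.34 in Ductal-like, -0.31 in Tuft/EEC.Progenitor, 0.31 in Tuft and -0.34 in EEC cells. With a mean over cells in place of summed counts and all UMIs in the total, they were 0.45 in Acinar/MucinDuctal, 0.81 in MucinDuctal, 0.90 in Ductal-like and 1.00 in Tuft/EEC.Progenitor cells. With all UMIs in the total, Cycs and Cox6a1 in MucinDuctal over Acinar were 0.13 and 0.21, and Ndufaf4, Atp5g1 and Uqcrq in Tuft over Acinar were 0.26, 0.34 and 0.43. Tuft over EEC was 0.62 without each type's cells of highest UMIs. Summed levels between times were near 0 and changed sign or size: 0.076 and 0.13 in Acinar and 0.077 and 0.11 in Acinar.Prolif cells without enzymes and without the wider list, -0.012 and 0.0013 in Ductal-like cells likewise, and -0.033 in EEC cells without the wider list. Without cells of highest UMIs they were -0.027 in Ductal-like and 0.013 in EEC cells, and as a mean over cells -0.011 in Acinar.Prolif, -0.016 in Ductal-like and -0.0016 in EEC cells; the cause was not tested. Leaving out 1 mouse at a time gave 0 to 1 called members in Acinar.Prolif, 0 to 1 in EEC and 0 to 3 in the interaction test. DESeq2 called 0 to 40 genes per comparison, edgeR without the gene filter 6 to 286, and edgeR without 2-week mouse 1 or 2-week mouse 2 85 to 970 and 52 to 207, where all mice gave 0 to 1. The other 316 values of the main comparisons and 278 of those of single members moved by less than the spread between mice, or kept the side of the threshold. That does not fix the direction of values near 0: with 1 mouse left out, the ranges were -0.058 to 0.0022 for Ductal-like and -0.045 to 0.059 for EEC over Acinar without enzymes, and between times -0.063 to 0.088 in Acinar/MucinDuctal, -0.0024 to 0.024 in MucinDuctal and -0.027 to 0.048 in Tuft cells. The nuclear over mitochondrial ratio of Tuft over Acinar ranged from -0.54 to -0.17. Without the wider list, named members over Acinar moved down by about as much as the sums, and none changed direction. No paired analysis was possible because the mice at 2 and 4 weeks are different animals whose labels share no replicate numbers.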

Other observations

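The order of the 4 mice was alike across cell types for some members. For the 86 members with at least 10 CPM in all 7 types present in every mouse, Kendall's W over the types had a median of 0.44, against 0.31 over 5577 genes of that level, and reached 0.9 in 9 of these members and in 0.628% of the genes (35). Level was not matched between members and other genes. Cox7a2l was highest in 2-week mouse 2 in all 7 types. Atp5k, Ndufa5, Ndufa3, Ndufc1 and Ndufa7 were highest in 4-week mouse 1 in all 7 types. Sdhd was highest in 4-week mouse 2 and lowest in 4-week mouse 1 in all 7. The types of a mouse share 1 animal and 1 library, and their parts in this order cannot be told apart.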
